A study of Mus musculus with 30 samples.

Results

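Immunoglobulin variable segments are the genes that B lineage cells join to diversity and joining segments to build the antigen-binding end of an antibody. The expression table of 30 mouse RNA-seq libraries listed 346 of them by symbol, 183 of the heavy chain (Ighv), 160 of the kappa light chain (Igkv) and 3 of the lambda light chain (Iglv). A segment was kept where its highest value over the 30 libraries was at least 1 TPM (a level scaled to transcript length and to the same total in every library). This left 41 segments, 14 heavy, 25 kappa and 2 lambda, or 11.8% of the listed ones, among 55291 genes in all. Another 140 segments were listed at 0 in every library and 165 stayed above 0 but below 1 TPM. The segments were chosen by their TPM values, so the levels of the 41 segments are given as a description, with no test.

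The libraries came from 10 subcutaneous mouse tumour lines with 3 replicates each: CMS5a, CT26NYESO1, CT26, Renca, EMT6, MC38OVA, MC38, B16F10, B16F1 and LL2. All are labelled as CD45+ immune cells that had infiltrated the tumours, which were taken at 10 mm in length, digested with enzymes and turned into RNA as single-cell suspensions. The study set out to find which tumour types suit OK-432, a preparation of killed streptococci, and the labels speak of injection into tumours for 24 hours, or none, and of BALB/cJ and C57BL/6J hosts, but tie neither treatment nor host to a library. Ages, sexes and pooling of mice are not stated, so replicates may be technical. MC38OVA and CT26NYESO1 derive from MC38 and CT26 by name, and B16F10 and B16F1 are sublines of one melanoma. From general knowledge of the lines, CMS5a, CT26NYESO1, CT26, Renca and EMT6 arose in BALB/c mice and the other 5 in C57BL/6 mice. H2-Ea, a class II gene that C57BL/6 mice do not express, ran from 21.2 to 472 TPM in the 15 libraries of BALB/c origin and was listed at 0 in the 15 of C57BL/6 origin.

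Each B cell rearranges 1 heavy and 1 light chain locus in a productive way, so the mix of segments in RNA reflects how many B lineage clones contribute and how strongly each transcribes its antibody genes. Naive B cells make membrane IgM and IgD at modest levels, whereas plasma cells, their antibody-secreting descendants, devote much of their RNA to a single antibody. A switched cell keeps its variable segment while exchanging the mu constant gene for a gamma, alpha or epsilon one. In bulk RNA, fewer B lineage cells and less immunoglobulin RNA per cell cannot be told apart.

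All 346 listed segments were found in the GENCODE M21 annotation of mm10. The 14 heavy segments lie on the minus strand of chr12:113588267-115834418, the 25 kappa segments on either strand of chr6:67555497-70699067, and both lambda segments on the minus strand of chr16:19085017-19241690. The annotation gives 1 of the 41, Ighv1-14, as a pseudogene. The sequences below are the last 99 coding bases of 5 segments that led a library or a line, from the GENCODE M21 transcripts, with the codons for tyrosine, a second aromatic or other residue and the conserved framework cysteine in capitals (motif TANTNNTGN, N being any base). Iglv1 (chr16:19085017-19085500) and Igkv10-96 (chr6:68631963-68632442) had the highest mean levels. Igkv16-104 (chr6:68425575-68426072) and Ighv1-75 (chr12:115833950-115834418) had the highest single values of their chains. Ighv9-3 (chr12:114140692-114141122) was the heavy segment with the highest mean.
Iglv1: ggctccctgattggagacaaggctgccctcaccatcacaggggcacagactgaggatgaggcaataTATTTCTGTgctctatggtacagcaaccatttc
Igkv10-96: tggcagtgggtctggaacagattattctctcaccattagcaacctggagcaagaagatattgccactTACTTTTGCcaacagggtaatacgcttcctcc
Igkv16-104: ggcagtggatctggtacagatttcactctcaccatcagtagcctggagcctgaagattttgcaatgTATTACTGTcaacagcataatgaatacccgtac
Ighv9-3: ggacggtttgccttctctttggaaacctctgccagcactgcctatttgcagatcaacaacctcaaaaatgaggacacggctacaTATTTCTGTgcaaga
Ighv1-75: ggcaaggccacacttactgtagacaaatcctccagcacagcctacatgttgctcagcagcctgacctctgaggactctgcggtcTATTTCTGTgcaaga
The motif stood in the last 60 coding bases of 38 of the 40 kept segments with a coding sequence (95.0%), and in 207 of 218 such segments overall (95.0%). On the opposite strand it occurred in 5 (12.5%) and 22 (10.1%). The bases after the cysteine are the start of the third hypervariable loop, which the joining process completes.

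Segments of one family can be nearly identical, which limits how well short reads tell them apart. Of the 41 transcripts, 33 shared at least 1 stretch of 50 bases with another listed segment, and the median share of such stretches was 20.8%. Igkv1-117 (chr6:68121046-68121827) and Igkv1-110 (chr6:68270485-68271267) rank among the 8 highest on average. They were the most alike of the pairs of kept segments with equal coding length, with 10 differences over 359 coding bases, 97.2% identity. Their last 240 coding bases are shown with the 9 differing positions in capitals.
Igkv1-117: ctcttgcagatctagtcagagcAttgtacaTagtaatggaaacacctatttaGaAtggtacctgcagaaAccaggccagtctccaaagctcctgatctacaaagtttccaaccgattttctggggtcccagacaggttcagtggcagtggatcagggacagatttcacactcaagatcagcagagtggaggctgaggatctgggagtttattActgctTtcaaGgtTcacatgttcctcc
Igkv1-110: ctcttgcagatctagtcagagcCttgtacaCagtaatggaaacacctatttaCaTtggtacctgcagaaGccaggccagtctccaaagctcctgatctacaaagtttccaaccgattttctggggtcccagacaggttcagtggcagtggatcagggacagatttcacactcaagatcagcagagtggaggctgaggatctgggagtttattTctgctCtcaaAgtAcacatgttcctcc
Levels of such neighbours are uncertain singly, and the sums below are less touched by how reads were split among them.

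Antibody segments were low everywhere and highest in CMS5a. The 41 segments together reached 30.3, 36.2 and 27.1 TPM in the 3 CMS5a libraries (31.2 ± 4.6, SD, n = 3), against a lowest of 0.685 TPM in LL2 replicate 3 and a highest of 23.1 TPM in CT26NYESO1 replicate 2 among the other 27. The CMS5a libraries therefore did not overlap with any other library. CT26NYESO1 followed with 9.39, 23.1 and 6.26 TPM (12.9 ± 9.0), CT26 with 4.17, 5.23 and 16.5 TPM (8.64 ± 6.8) and Renca with 4.14, 12.1 and 6.55 TPM (7.58 ± 4.1). In these 3 lines 1 library stood well above the other two.

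The remaining lines had lower sums. MC38OVA had 6.70, 7.39 and 5.76 TPM (6.62 ± 0.82), the tightest replicates of all, and MC38 had 4.32, 2.96 and 1.95 TPM (3.08 ± 1.2). B16F10 had 1.94, 4.86 and 3.39 TPM (3.39 ± 1.5), and B16F1 had 3.18, 9.83 and 3.84 TPM (5.62 ± 3.7). EMT6 had 0.856, 1.89 and 3.13 TPM (1.96 ± 1.1), and LL2 had 1.78, 2.67 and 0.685 TPM (1.71 ± 1.0). Ordered by mean, every neighbouring pair of lines overlapped in library values, except CMS5a and CT26NYESO1. Without replicate 2 the CT26NYESO1 mean was 7.83 TPM, without replicate 3 the CT26 mean was 4.70 TPM, and without replicate 2 the B16F1 mean was 3.51 TPM.

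**Figure D1:**
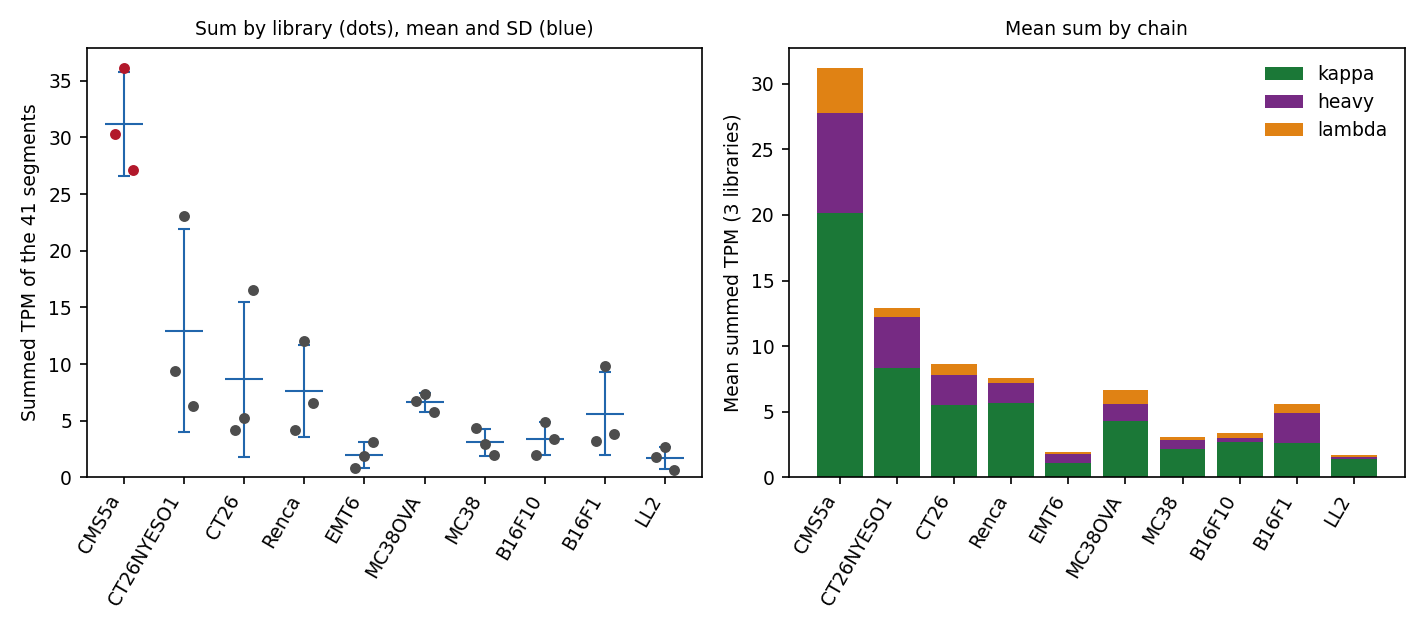
Left, summed TPM of the 41 variable segments in each library (dots, CMS5a in red) with the mean and SD of each line in blue (n = 3). Right, the mean sum of each line split into kappa, heavy and lambda segments. The CMS5a libraries lie between 27.1 and 36.2 TPM, above all 27 others, and kappa segments make up the largest part of the sum in every line.

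All 3 chains had their highest values in CMS5a. Kappa segments summed to 20.8, 22.1 and 17.6 TPM in CMS5a, against at most 16.4 TPM elsewhere, in CT26NYESO1 replicate 2. Heavy segments summed to 6.43, 10.4 and 6.07 TPM in CMS5a, which overlapped with the 6.26 TPM of CT26NYESO1 replicate 2. Lambda segments, a minor class in mice, summed to 3.10, 3.65 and 3.43 TPM in CMS5a and to at most 1.86 TPM elsewhere, in MC38OVA replicate 2. Kappa held 64.9% ± 3.7 of the CMS5a sum, heavy 24.2% ± 4.1 and lambda 10.98% ± 1.4 (SD, n = 3). In B16F1 the heavy share was 39.8% ± 5.3 and in B16F10 it was 9.65% ± 9.8. This gap depended on the choice of segments. Over all 346 segments the heavy share was 37.2, 46.3 and 38.7% in B16F1 and 37.0, 38.4 and 31.5% in B16F10.

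Over all 346 listed segments the sums were larger and the leading line was the same. CMS5a reached 58.7, 60.9 and 48.0 TPM, against at most 30.8 TPM elsewhere, in CT26 replicate 3. The 41 segments held between 18.7% of this wider sum, in LL2 replicate 3, and 82.1%, in B16F1 replicate 2. CMS5a libraries listed 115, 98 and 104 of the 346 segments above 0, and the other 27 libraries between 15 and 77.

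The threshold of 1 TPM was crossed thinly. Of the 1230 values of the 41 segments in 30 libraries, 776 (63.1%) were listed at 0 and 69 were at 1 TPM or more. A single library carried 27 of the 41 segments over the threshold. Only in CMS5a libraries did 19 of the 41 reach it, so 22 would have been kept with those libraries left out. Just inside the threshold were Igkv2-137 at 1.004 TPM, Ighv1-14 at 1.01 TPM and Igkv12-89 at 1.03 TPM. Just outside were Igkv3-12 at 0.996 TPM, Igkv15-103 at 0.990 TPM and Igkv2-109 at 0.989 TPM. The highest value of a segment fell in CMS5a replicate 2 for 14 of the 41, in CMS5a replicate 1 for 6 and in CMS5a replicate 3 for 3.

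**Figure D2:**
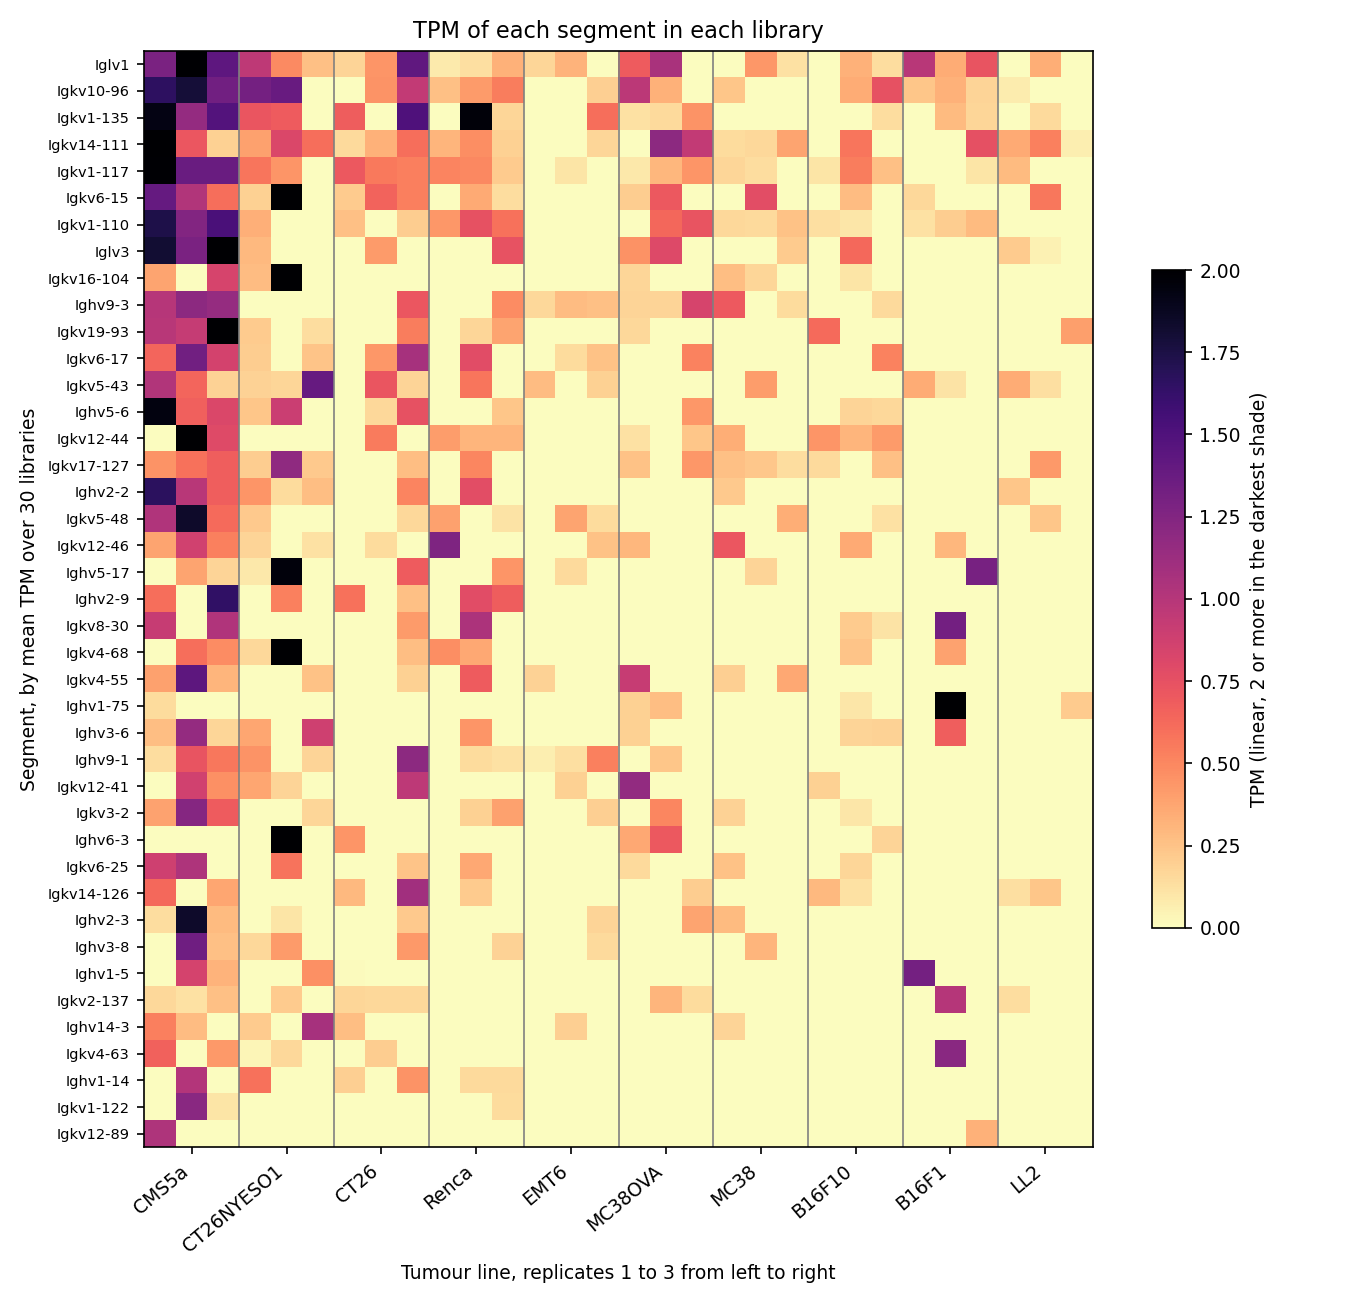
TPM of the 41 segments (down the page by mean over 30 libraries) in each library (across, 3 replicates per line), on a linear scale that ends at 2 TPM. The 3 CMS5a columns at the left hold values in most rows, and CT26NYESO1 replicate 2 and B16F1 replicate 2 hold isolated high values.

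The 2 lambda segments were among the most abundant. Iglv1 was at 1.29, 2.36 and 1.43 TPM in CMS5a, against 0, 0.313 and 1.42 TPM as lowest, median and highest of the other 27 libraries. Iglv3 was at 1.81, 1.29 and 2.0 TPM in CMS5a, against 0, 0 and 0.797 TPM. Iglv1 thus overlapped slightly with CT26 replicate 3, whereas all CMS5a values of Iglv3 lay above the others.

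Of the 25 kappa segments, 4 were above 1 TPM in all 3 CMS5a libraries. Igkv10-96 was at 1.66, 1.79 and 1.33 TPM in CMS5a, against 0, 0.235 and 1.38 TPM as lowest, median and highest elsewhere. Igkv1-135 was at 1.92, 1.16 and 1.48 TPM in CMS5a, against 0, 0.122 and 1.96 TPM, with the highest in Renca replicate 2. Igkv1-117 was at 1.99, 1.37 and 1.37 TPM in CMS5a, against 0, 0.168 and 0.704 TPM. The near-identical Igkv1-110 was at 1.73, 1.24 and 1.52 TPM in CMS5a, against 0, 0.128 and 0.743 TPM. Both of these stood above every other library in all 3 CMS5a replicates.

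Other segments differed widely among the CMS5a replicates. Igkv14-111 was at 2.11, 0.715 and 0.189 TPM, leading replicate 1 only. Igkv19-93 was at 0.986, 0.924 and 2.49 TPM, leading replicate 3 only. Igkv12-44 was listed at 0 in replicate 1 and at 2.06 and 0.797 TPM in the other two. Igkv6-17 was at 0.643, 1.33 and 0.853 TPM, Igkv5-43 at 1.02, 0.642 and 0.186 TPM, and Igkv5-48 at 1.03, 1.84 and 0.623 TPM. Of the heavy segments, Ighv9-3 was at 0.994, 1.2 and 1.15 TPM and Ighv5-6 at 1.94, 0.665 and 0.820 TPM. Leading positions thus went to different segments in replicates of one line.

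Counted over all 41, 6 segments had all 3 CMS5a values above the other 27 libraries and 23 were above 0 in all 3. Of 19912 genes of any kind that reached 1 TPM in a library, 702 (3.53%) had all 3 CMS5a values above the other 27. The segments were chosen on these levels, so nothing is read from the difference. Line means were highest in CMS5a for 31 of the 41 segments, in CT26NYESO1 for 5, in B16F1 for 4 and in CT26 for 1. The choice of segments favours CMS5a in this count, as 19 of the 41 reached 1 TPM only there. It was not made over all genes, and nothing is read from it. The 12 segments without a sentence of their own here had CMS5a means between 0.270 TPM (Ighv14-3) and 1.11 TPM (Ighv2-2).

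Single libraries of other lines held isolated high values. CT26NYESO1 replicate 2 had the highest single value of all, 5.85 TPM of Igkv16-104, against 0.275 TPM in replicate 1 and 0 in replicate 3 of the same line, and 0 in all CT26 libraries. Igkv16-104 was at 0.378, 0 and 0.843 TPM in CMS5a. The same library of CT26NYESO1 held the highest values of Igkv6-15 at 2.68 TPM (1.40, 1.02 and 0.602 TPM in CMS5a), Ighv6-3 at 2.21 TPM, Igkv4-68 at 2.02 TPM, Ighv5-17 at 1.96 TPM and Igkv17-127 at 1.18 TPM. Ighv6-3, Igkv4-68 and Igkv17-127 were chosen for naming after their values were seen. Together the 6 segments summed to 15.9 TPM there, and the other 35 to 7.21 TPM. Ighv6-3 was listed at 0 in all CMS5a libraries.

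Some antibody genes were high in that library as well. Ighg1 was at 2.38 TPM in CT26NYESO1 replicate 2, against 0.372 and 0.284 TPM in replicates 1 and 3. Ighg3 was at 2.51 TPM there, against 0.0536 and 0.0575 TPM, and Ighg2b at 1.34 TPM, against 0.124 and 0 TPM. Jchain, which joins IgM pentamers and IgA dimers, was at 1.92 TPM there, against 0.338 and 0.620 TPM. For Ighg1 and Ighg3 these were the highest values of all 30 libraries, and for Jchain the highest outside CMS5a. Igha and Mzb1 did not set the replicate apart, with Igha at 1.55, 1.58 and 1.35 TPM and Mzb1 at 1.38, 1.06 and 0.437 TPM in the 3 CT26NYESO1 libraries. Nor did Tnfrsf17, the receptor BCMA of plasma cells, at 2.15, 2.35 and 2.15 TPM in the 3 CT26NYESO1 libraries.

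A similar pattern of fewer segments appeared in B16F1 replicate 2. Ighv1-75 was at 3.64 TPM there and listed at 0 in replicates 1 and 3, and it made up 37.1% of the summed segments of that library. Igkv8-30 at 1.33 TPM, Igkv4-63 at 1.21 TPM and Igkv2-137 at 1.004 TPM also had their highest values there and were listed at 0 in the other B16F1 replicates. Igkv8-30 and Igkv4-63 were chosen for naming after their values were seen. Ighg2b was at 2.49 TPM in the same library, against 0 and 0.383 TPM in replicates 1 and 3. Mitochondrial transcripts made up 39.0% of that library, the highest of all 30, and their part in these values was not tested. Other lines had smaller examples, such as Ighv1-5 at 1.32 TPM in B16F1 replicate 1, Igkv12-46 at 1.27 TPM in Renca replicate 1 and Igkv12-41 at 1.17 TPM in MC38OVA replicate 1.

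How evenly the segments shared the sum was expressed as the effective number, the inverse of the summed squared shares, which equals the number of segments when all are equal. CMS5a had effective numbers of 22.4, 27.4 and 22.8 (24.2 ± 2.8), against a highest of 19.6 elsewhere, in CT26 replicate 3. B16F1 had 3.44, 5.20 and 4.85 (4.50 ± 0.94), the lowest mean, and B16F10 had 4.98, 13.2 and 8.73 (8.95 ± 4.1). LL2 had 6.75, 6.76 and 2.21 (5.24 ± 2.6). The other lines had means between 7.07 in EMT6 and 13.2 in CT26. The number cannot exceed the count of segments listed above 0, which ran from 3 in LL2 replicate 3 to 35 in CMS5a replicate 3. The choice of segments also favours CMS5a, as 19 of the 41 reached 1 TPM only there. Over all 346 segments CMS5a had effective numbers of 62.2, 61.2 and 55.9, against a highest of 47.9 elsewhere, in CT26 replicate 3.

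The highest segment held 6.97, 6.52 and 9.18% of the sum in CMS5a. In B16F1 it held 41.6, 37.1 and 33.8%, a different segment in each replicate, Ighv1-5, Ighv1-75 and Ighv5-17. In CT26NYESO1 it held 14.1, 25.3 and 22.2%, through Igkv10-96, Igkv16-104 and Igkv5-43, and in CT26 16.9, 13.8 and 9.08%. In MC38OVA it held 17.4, 16.2 and 16.4%, and in MC38 16.5, 26.0 and 19.6%. The highest 3 segments held 19.95% ± 2.6 of the sum in CMS5a, the lowest of the 10 lines, and 73.0% ± 10 in B16F1, the highest.

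**Figure D3:**
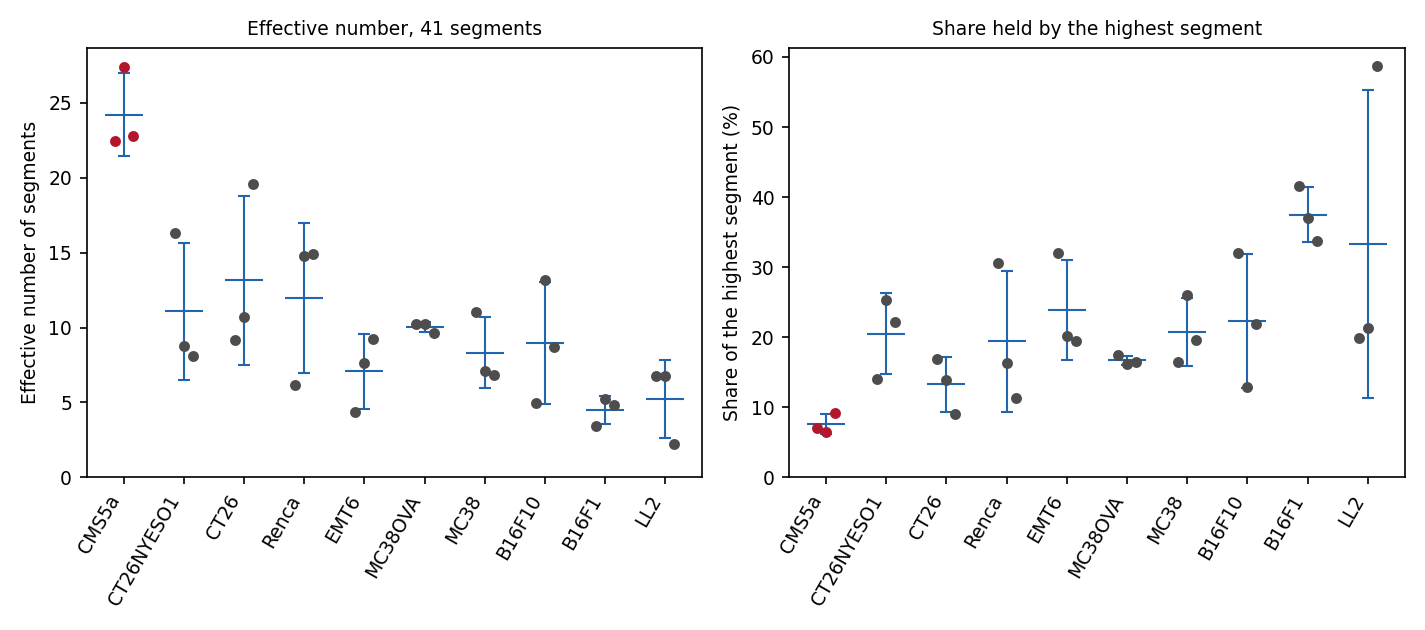
Left, effective number of segments in each library (dots, CMS5a in red) with the mean and SD of each line in blue (n = 3). Right, percentage of the summed segment TPM held by the highest segment, drawn in the same way. CMS5a libraries have the highest effective numbers (22.4 to 27.4) and shares of 6.52 to 9.18%, which CT26 replicate 3 meets at 9.08%, and B16F1 has shares of 33.8 to 41.6%.

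At the median, replicates of a line did not resemble each other much more than libraries of different lines in their mix of the 41 segments. The overlap of 2 libraries, the sum over segments of the smaller of the 2 shares, had a median of 27.4% over 30 pairs within lines and 24.5% over 405 pairs between lines. CMS5a pairs overlapped by 56.8 to 67.7%, and LL2 pairs by 9.99 to 33.8%. Over all 346 segments the medians were further apart, at 24.3% within lines and 18.4% between lines. For T cell receptor alpha and beta variable segments, 51 of which reached 1 TPM by the same rule, the medians were 55.2% within lines and 39.1% between lines. In CMS5a pairs the T cell receptor segments overlapped by 64.0 to 66.3%. T cell receptor sums were higher, with a median of 17.9 TPM over the 30 libraries, against 4.59 TPM for the 41 antibody segments. The part of these levels in the overlaps was not tested. Pairs share libraries, so these values carry no test.

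T cell receptor segments had another order of lines. Their sum was 73.0 ± 15 TPM in MC38OVA and 43.5 ± 9.6 TPM in MC38, and 45.6 ± 12 TPM in CT26NYESO1 and 25.6 ± 11 TPM in CT26. In CMS5a it was 22.3 ± 4.7 TPM (SD, n = 3 each). None of the 8 T cell genes was called in CMS5a against the mean of the other 9 lines, where 13.7% of all genes were. Of the 8, 2 passed an unadjusted p under 0.05 in limma. With 8 genes tested, this count is too small to set their share called apart from that of all genes.

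The constant genes, which the choice of segments did not use, were tested across the lines. The fit covered 17944 genes, each with a minimum of 3 libraries reaching 1 TPM, on log2(TPM + 1). A gene was called where its p, adjusted by Benjamini-Hochberg, was under 0.05 and its log2 difference was 1 or larger. Each line was set against the mean of the other 9, so these comparisons share libraries. Of the 41 variable segments 8 passed that minimum, some through CMS5a alone, and no count of them is given because their levels chose them. The file held 13 of 14 listed constant genes and 8 were tested. Over the 10 lines 7 of the 8 were called, where 85.5% of all genes were. In CMS5a 6 of the 8 were higher and 0 lower, where 13.7% of all genes were called and 9.23% as higher, and the median log2 difference was 1.61, against 0.08 over all genes tested.

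Ighm, the mu chain of IgM, was at 65.8, 60.3 and 67.5 TPM in CMS5a, against 2.72, 17.9 and 50.5 TPM as lowest, median and highest of the other 27 libraries. Its log2 difference was 2.02 (SE 0.27, limma adjusted p = 7.4e-07). Igkc, the kappa constant gene, was at 21.3, 16.03 and 17.1 TPM in CMS5a, against 0.386, 2.67 and 19.7 TPM, and overlapped with Renca replicate 1. Its log2 difference was 2.18 (SE 0.31, limma adjusted p = 1.9e-06). Ighd, the delta chain of naive B cells, was at 5.27, 5.25 and 5.02 TPM in CMS5a, against 0.404, 0.788 and 3.57 TPM (log2 difference 1.65, SE 0.15). No CMS5a library overlapped with another for Ighm or Ighd.

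Of 3 lambda constant genes tested, 2 were called. Iglc3 was at 10.3, 6.65 and 6.56 TPM in CMS5a, against 0.322, 1.21 and 4.34 TPM as lowest, median and highest elsewhere (log2 difference 1.96, SE 0.20), and Iglc2 was higher by 1.57 (SE 0.20). Iglc1 was higher by 0.72 and Ighg2b by 0.61, and neither reached the log2 difference of 1. Igha, the alpha chain of IgA, was at 3.19, 6.67 and 2.20 TPM in CMS5a, against 0.0217, 0.624 and 6.35 TPM, a log2 difference of 1.36 (SE 0.34, limma adjusted p = 0.0018). Without CMS5a replicate 2 its adjusted p was 0.0506, and it was no longer called. Ighe, the epsilon chain of IgE, was listed at 0 in all 30 libraries.

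**Figure D4:**
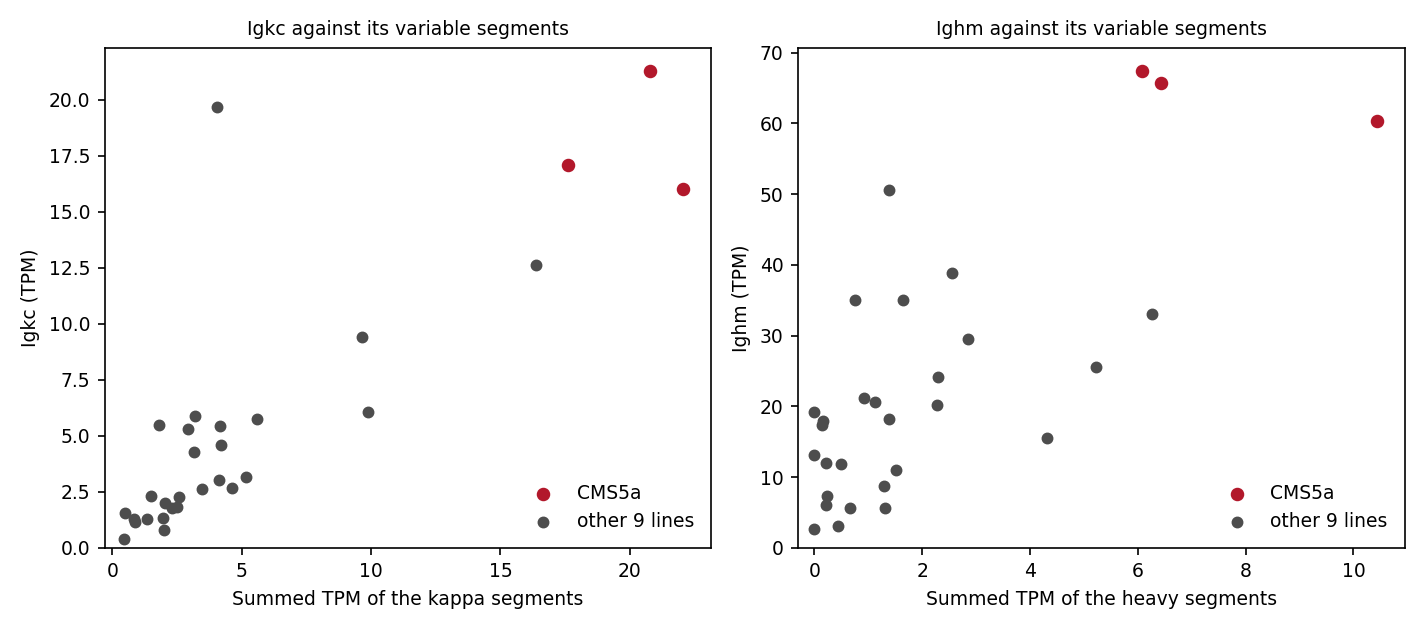
Each dot is a library, CMS5a in red. Left, Igkc (TPM) against the summed TPM of the kappa segments. Right, Ighm (TPM) against the summed TPM of the heavy segments. The CMS5a libraries lie at the upper right in both, and Renca replicate 1 has 19.7 TPM of Igkc at 4.06 TPM of kappa segments.

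B cell and plasma cell genes were read in the same fit. Of 10 tested genes of the B cell list, 5 were higher and 0 lower in CMS5a, where 9.23% of all genes were called as higher. The median log2 difference of the list was 0.996, against 0.08 over all genes. Cd79a, a signalling chain of the B cell receptor, was at 11.1, 11.2 and 14.9 TPM in CMS5a, against 0.188, 1.61 and 9.11 TPM as lowest, median and highest elsewhere (log2 difference 2.12, SE 0.18, limma adjusted p = 2.3e-10). Cd79b, its partner, was higher by 1.197 (SE 0.23), the transcription factor Ebf1 by 1.85 (SE 0.14), the Fc receptor-like Fcrla by 1.39 (SE 0.19) and the scaffold Bank1 by 1.07 (SE 0.16). Cd22, Pax5, Spib and Fcer2a were tested and not called. Mean levels in CMS5a and over the other 27 libraries were 2.29 and 3.81 TPM for Cd22 and 0.799 and 1.69 TPM for Pax5. For Spib they were 4.53 and 2.87 TPM, and for Fcer2a 1.01 and 0.278 TPM. Over the 30 libraries Ebf1 did not follow the summed segments (Spearman's rho -0.06). Ebf1 is also made by stromal cells, and the summed fibroblast list reached its highest value of all libraries, 3429.7 TPM, in CMS5a replicate 2; its part in the Ebf1 difference was not tested.

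Ms4a1, which encodes the B cell surface marker CD20, was low even there. It was at 1.38, 0.819 and 1.97 TPM in CMS5a, against 0.0564, 0.266 and 0.790 TPM as lowest, median and highest elsewhere, and was not tested because it passed the filter in too few libraries. All its CMS5a values lay above the other 27 libraries.

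Of 11 tested plasma cell genes, 3 were higher in CMS5a and 1 lower (median log2 difference 0.45). Of all genes 13.7% were called in CMS5a, and 9.23% as higher. Jchain was at 2.53, 2.25 and 0.977 TPM in CMS5a, against 0, 0.122 and 1.92 TPM as lowest, median and highest elsewhere (log2 difference 1.17, SE 0.18). Mzb1, a chaperone of antibody assembly, was higher by 1.15 (SE 0.20). Sdc1, which encodes CD138 and is also made by epithelial cells, was higher by 1.30 (SE 0.17). Its CMS5a mean was 202 TPM, a level far above that of the antibody genes. Renca and EMT6 had higher Sdc1 means still, at 530 and 273 TPM. Of the 3 epithelial genes tested, 0 were higher and 2 lower in CMS5a, while all 3 fibroblast genes were higher. The source of Sdc1 was not tested. Fkbp11 was lower by 1.30 on the log2 scale, at 13.0 TPM on average in CMS5a. The regulators Prdm1, Irf4 and Xbp1 did not pass the test, with log2 differences of -0.28, -0.22 and 0.45.

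**Figure D5:**
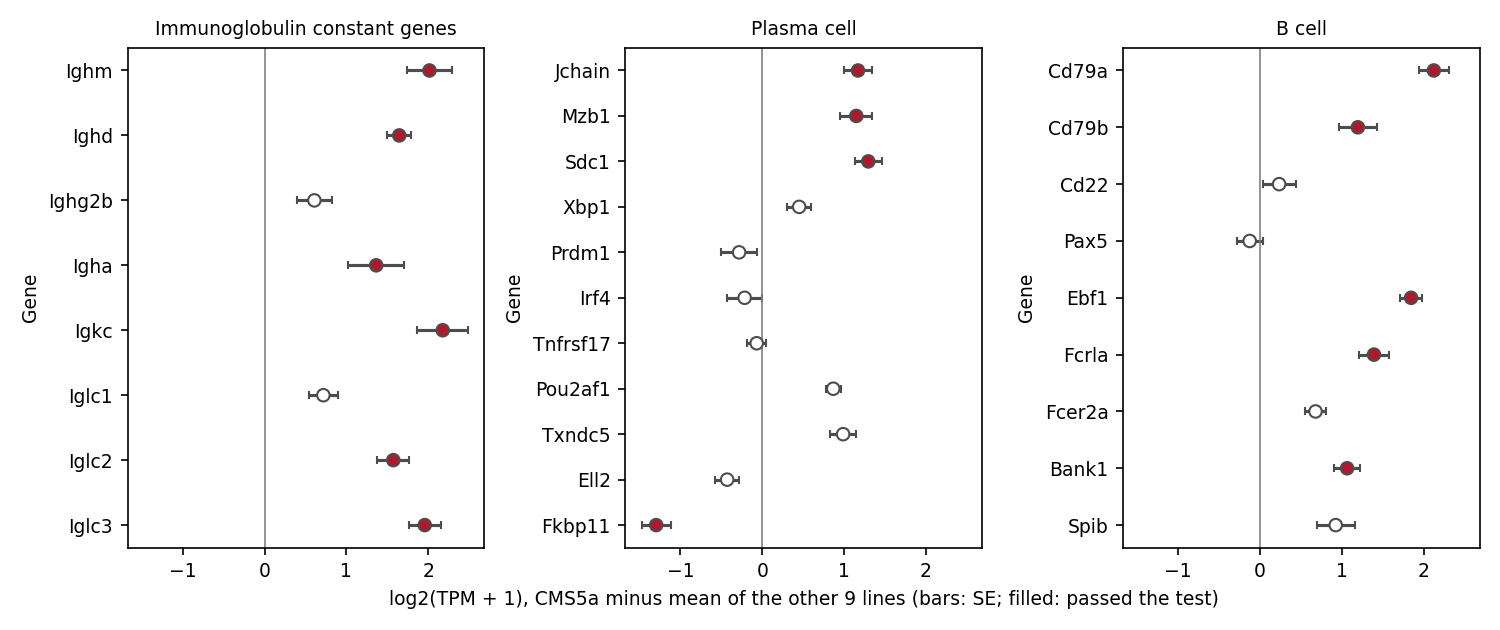
Log2(TPM + 1) in CMS5a minus the mean of the other 9 lines for the tested immunoglobulin constant genes, plasma cell genes and B cell genes, with the SE of the fit. Filled dots passed the test: 6 of 8 constant genes, 4 of 11 plasma cell genes, of which Fkbp11 is lower, and 5 of the 9 B cell genes drawn.

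In the other lines few of the 8 constant genes were called. In Renca 1 was called, where 22.9% of all genes were, in EMT6 1, where 14.9% were, in LL2 2, where 14.5% were, and in B16F10 1, where 28.5% were. None was called in CT26NYESO1, CT26, MC38OVA, MC38 or B16F1, where 12.6%, 13.2%, 13.8%, 12.3% and 21.7% of all genes were. In these 5 lines 4, 1, 1, 1 and 5 of the 8 passed an unadjusted p under 0.05 in limma. With 8 genes tested, these counts are too small to set the share of constant genes called apart from that of all genes.

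The constant genes that were called had the following values. In Renca Igkc was higher by 1.36 (SE 0.31, limma adjusted p = 5.4e-04), at 19.7, 9.42 and 5.88 TPM. Without Renca replicate 1 the difference was 0.93 and no longer passed the test. In EMT6 Igkc was lower, with a log2 difference of -1.61 (SE 0.31) and levels of 0.386, 1.30 and 0.793 TPM, the lowest of all lines. EMT6 still had 12.0, 35.1 and 20.6 TPM of Ighm. In LL2 Ighm and Igkc were lower, with log2 differences of -1.10 (SE 0.27) and -1.06 (SE 0.31), and each lost its call without 1 LL2 library, replicate 3 for Ighm and replicate 1 for Igkc. In B16F10 Ighm was lower, with a log2 difference of -2.23 (SE 0.27) and levels of 2.72, 3.02 and 5.59 TPM, while the median over all genes was -0.48 in that line.

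MC38OVA and MC38 had some B cell genes that were high without high antibody segments. Of 10 tested genes of the B cell list, 5 were higher and 0 lower in MC38OVA, where 13.8% of all genes were called. In MC38 3 were higher and 0 lower, where 12.3% of all genes were called. The median log2 differences of the list were 0.888 in MC38OVA and 0.363 in MC38. Cd79a was at 9.11, 6.63 and 7.12 TPM in MC38OVA and at 8.11, 8.93 and 5.92 TPM in MC38, and was called as higher than the mean of the other 9 lines in both (log2 differences 1.42 and 1.42). Cd22 and Pax5 were also called as higher in both lines. Their Ms4a1 stayed at 0.429 ± 0.16 TPM in MC38OVA and 0.271 ± 0.091 TPM in MC38 (SD, n = 3 each). Ighm was not called in either line, at 21.2, 50.5 and 35.1 TPM in MC38OVA and 18.2, 11.8 and 17.4 TPM in MC38.

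Related lines were compared directly for the antigen-carrying derivatives and the melanoma sublines. The sums of the 41 segments did not overlap between MC38OVA and MC38, whose libraries ran from 5.76 to 7.39 TPM and from 1.95 to 4.32 TPM. Over all 346 segments they did, with 12.6, 17.1 and 13.0 TPM in MC38OVA and 14.9, 6.81 and 4.30 TPM in MC38. The sums of the 41 overlapped between CT26NYESO1 and CT26 and between B16F10 and B16F1. None of the 8 constant genes was called in MC38OVA against MC38, where 1.31% of all genes were, or in CT26NYESO1 against CT26, where 2.27% were, and 1 and 2 of them passed an unadjusted p under 0.05 in limma. In B16F10 against B16F1 1 of the 8 was called, where 20.9% of all genes were. This was Ighm, which was lower, at 2.72, 3.02 and 5.59 TPM in B16F10 and 5.62, 15.5 and 8.69 TPM in B16F1 (log2 difference -1.14, SE 0.36, limma adjusted p = 0.014). It was no longer called with libraries scaled by median ratios, where the difference was -0.86 (adjusted p = 0.102), or without B16F1 replicate 2, where it was -0.79 (adjusted p = 0.0966). Leaving out B16F10 replicate 1 or 2 also ended the call, with adjusted p of 0.0594 and 0.0553 in limma.

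By strain of origin the lines were compared as 10 means, 5 against 5. Mean sums were 31.2, 12.9, 8.64, 7.58 and 1.96 TPM in lines of BALB/c origin and 6.62, 5.62, 3.39, 3.08 and 1.71 TPM in lines of C57BL/6 origin, and the groups overlapped through EMT6. None of the 8 constant genes was called, where 1.38% of all genes were, with a median log2 difference of 0.62, and 1 passed an unadjusted p under 0.05 in limma. Origin, host and tumour tissue cannot be told apart in these lines.

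The genes whose levels followed the summed segments most closely were ranked by Spearman's rho over the 30 libraries, as a description. Outside the immunoglobulin genes Fcrla came first with 0.84, then Gm32857 with 0.79, Fcmr, the receptor for IgM, with 0.78, and Cd4, the T helper co-receptor, with 0.78. BC064078, Gm14401, Gm5624, Gm14412, Gm37819 and Gm13230 completed the first 10, with rho from 0.77 to 0.75. Within the 27 libraries outside CMS5a rho was 0.79 for Fcrla, 0.70 for Fcmr and 0.74 for Cd4. Among constant genes Igkc had 0.84 over 30 libraries and 0.80 over 27, and Ighm had 0.69 and 0.58. Libraries fall into 10 lines, and all values are shares of 1 library total.

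Features of the libraries that stood beside the CMS5a result were measured. The summed general leukocyte list was 926 ± 52 TPM in CMS5a, inside the range of line means from 299 TPM in B16F1 to 1946 TPM in MC38OVA. Haemoglobin transcripts made up 2.20 to 4.12% of CMS5a libraries, against 0.0222 to 7.70% in the other 27, and mitochondrial transcripts 18.1 to 22.4%, against 9.17 to 39.0%. In the fit all 4 red cell genes, which encode haemoglobin, were higher in CMS5a (median log2 difference 2.55), as were all 3 fibroblast genes (3.30). Of all genes 9.23% were called as higher there. Scaled to transcripts other than haemoglobin and mitochondrial ones, the mean sum of the 41 segments in CMS5a was 40.9. Several libraries labelled as CD45+ cells held many transcripts of other cells, with a summed melanocyte list of up to 12462 TPM in B16F10 replicate 1 and a summed epithelial list of up to 1967 TPM in Renca replicate 1. Their part in the antibody segment levels was not tested.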

How the data were processed

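RNA-seq of 30 libraries was analysed from the TPM values deposited by the authors in a single table, with no read counts, so the depth of a library and the precision of a single value are unknown. Libraries were made with a TruSeq stranded mRNA kit, per the labels' protocols. The submitters' processing notes name Trim Galore 0.6.5, STAR 2.7.3a, StringTie 2.1.2 and mm10, without roles. The annotation and the strand setting are not given in the sources used here. mm10 is a C57BL/6J genome, and what differences of BALB/c segments from it do to the values was not tested.

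Groups are the line names in the titles. The members and the gene lists were chosen with earlier results of these data known. Sums, shares, effective numbers and overlaps were computed per library and carry no test. Genes with a minimum of 3 libraries reaching 1 TPM, 17944 in all and 8 of the 41 segments, were fitted as log2(TPM + 1) with limma 3.58.1 in R 4.3.3 (a mean per line, trend in the variance), and by strain of origin on 10 line means. The pseudocount shrinks differences of low genes. Calls needed a Benjamini-Hochberg adjusted p under 0.05, over all genes tested, and a log2 difference of at least 1. The fit was tested on simulated data. P-values between lines rest on the spread of replicates within lines, which may be technical. Those by strain of origin rest on the spread between the 10 line means.

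Segments were named as the 15 with the highest mean TPM, the highest segment of each library, and 3 on each side of the threshold of 1 TPM. Other genes were named from the lists or as the 10 with the highest Spearman's rho with the summed segments. Exceptions are stated where they occur. The values of 1 gene of the B cell list are not reported here, though the counts of that list include it. Sequences come from the GENCODE M21 transcripts. Alternatives were another scaling, a pseudocount of 0.1, no filter, a replicate block, families of related lines and leaving out each library. Replicate numbers do not pair the samples: deviations of same-numbered libraries of different lines correlated from -0.47 to 0.42 (median 0.005).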

Additional observations from a re-analysis of the deposited data

How the results depend on the processing

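Libraries, lines and processing all limit these results, and their weight was not ranked. With 3 libraries per line, values mostly listed at 0 and no read counts, levels of single segments below about 1 TPM are imprecise. The amount cannot be given. By choice of segments the mean CMS5a sum ran from 6.94 to 55.9 TPM. Over the 41 segments, all 346 or the 9 that reached 2 TPM, CMS5a had the highest mean sum and the highest effective number. It had, over the 41 or all 346, the lowest share of the highest segment, but over the 9 Renca had the lowest share. Leaving out the 3 CMS5a libraries left 22 segments, and leaving out 1 library left 32 to 41 (chosen after seeing the data). Leaving out 1 library of a line gave mean sums of 28.7 to 33.2 TPM in CMS5a, 7.83 to 16.2 TPM in CT26NYESO1, 4.70 to 10.9 TPM in CT26 and 3.51 to 6.83 TPM in B16F1.

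Over every listed segment the mean sum was 55.9 TPM in CMS5a, 20.1 in CT26NYESO1, 15.5 in CT26, 13.6 in Renca, 5.55 in EMT6, 14.3 in MC38OVA, 8.67 in MC38, 7.96 in B16F10, 8.84 in B16F1 and 5.13 in LL2. The share of the highest segment was then 4.22% in CMS5a, 12.7% in CT26NYESO1, 8.35% in CT26, 9.64% in Renca, 14.96% in EMT6, 7.83% in MC38OVA, 9.20% in MC38, 10.7% in B16F10, 22.2% in B16F1 and 12.2% in LL2, and the effective number was 59.8 in CMS5a, 25.0 in CT26NYESO1, 29.1 in CT26, 26.3 in Renca, 15.9 in EMT6, 27.2 in MC38OVA, 22.8 in MC38, 22.3 in B16F10, 10.4 in B16F1 and 16.5 in LL2. Over the 9 segments the mean sum was 6.94 TPM in CMS5a, 5.75 in CT26NYESO1, 2.11 in CT26, 1.47 in Renca, 0.217 in EMT6, 2.34 in MC38OVA, 0.933 in MC38, 1.24 in B16F10, 2.34 in B16F1 and 0.825 in LL2. The share was 33.5% in CMS5a, 48.4% in CT26NYESO1, 39.9% in CT26, 30.7% in Renca, 100% in EMT6, 48.9% in MC38OVA, 57.1% in MC38, 48.6% in B16F10, 73.3% in B16F1 and 66.1% in LL2, and the effective number was 4.53, 3.31, 3.61, 4.32, 1.0, 3.50, 2.37, 3.25, 1.58 and 2.03 in the same order. Scaled to transcripts outside mitochondrial and haemoglobin ones, the mean sums that moved by more than the SD between replicates were 40.9 in CMS5a, 8.6 in MC38OVA and 5.17 in B16F10, and by median ratios 5.12 in B16F10.

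With a pseudocount of 0.1 the genes called against the mean of the other 9 lines numbered 4233 in CMS5a, 4239 in CT26NYESO1, 4227 in CT26, 6450 in Renca, 4722 in EMT6, 4192 in MC38OVA, 3962 in MC38, 8173 in B16F10, 6065 in B16F1 and 4682 in LL2. The count was 66 in MC38OVA against MC38 and 5696 in B16F10 against B16F1. MC38OVA against MC38 also gave 141 genes with no filter and 14 to 604 with 1 library left out, against 235 (14 without MC38 replicate 2, 22 and 30 without MC38OVA replicate 2 or 3, and 604 without MC38OVA replicate 1). Lines averaged into 7 families gave 101 genes by origin, against 247; the cause was not tested. Median-ratio scaling shifted the median gene by -0.14 in CMS5a, 0.50 in B16F10 and 0.33 in B16F10 against B16F1 (log2), and higher genes were then 41.3% of calls in B16F10, against 18.6%, and 41.7% in B16F10 against B16F1, against 21.7%. With the replicate block, which has no basis in pairing here, MC38OVA against MC38 gave 224 genes and CT26NYESO1 against CT26 412, against 408. Of the calls in CMS5a named in the report, Igha lost its own without CMS5a replicate 2, Cd79b without replicate 3 (log2 difference 0.998), and Bank1 without replicate 1 (0.96) or by median ratios (0.97).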
